A study of Mus musculus with 24 samples.

Results

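The 9 genes described here are the PDGF ligand genes Pdgfa, Pdgfb, Pdgfc and Pdgfd, the PDGF receptor genes Pdgfra and Pdgfrb, and the VEGF ligand genes Vegfa, Vegfb and Vegfc. They were chosen by symbol from the 54752 genes of the deposited count table, and all 9 were among the 16463 genes that passed the filter on low counts. RNA-Seq libraries were made from the ductus arteriosus (DA), the fetal vessel that joins the pulmonary artery to the aorta, and from the ascending aorta of E18.5 mouse embryos. Prdm6-deficient embryos carried Wnt1Cre;PRDM6f/f, in which a Wnt1 promoter drives Cre in the neural crest, so that cells of other origins in these vessels keep Prdm6. Controls were littermates labelled PRDM6wt/f, except for 1 PRDM6wt/wt embryo (control DA replicate 3) and 1 Wnt1Cre;PRDM6wt/wt embryo, which gave control DA replicate 2 and control aorta replicate 3. The libraries were 7 control DA, 5 Prdm6-deficient DA, 6 control aorta and 5 Prdm6-deficient aorta, 23 in all, and Prdm6-deficient DA replicates 1 and 2 each pooled 2 embryos. By the animal numbers, 6 control embryos and 2 Prdm6-deficient embryos gave both a DA and an aorta library, and the pool of Prdm6-deficient DA replicate 2 held the embryos of Prdm6-deficient aorta replicates 1 and 2, so the vessel comparisons share animals. The library labelled replicate 4 of the Prdm6-deficient DA was not used here.

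Platelet-derived growth factors are secreted dimers that signal through the receptor tyrosine kinases encoded by Pdgfra and Pdgfrb. In growing vessels, endothelial cells release PDGF-B, which binds PDGFRβ on pericytes and smooth muscle cells (SMCs), whereas PDGFRα is carried mainly by fibroblasts and other mesenchymal cells and is the receptor of PDGF-A and PDGF-C. PDGF-C and PDGF-D are secreted in a latent form that proteases have to cleave. Vascular endothelial growth factors act on endothelial receptors: VEGF-A, the oxygen-sensitive ligand, on VEGFR2 (Kdr) and VEGFR1 (Flt1), VEGF-B on VEGFR1, and VEGF-C mainly on VEGFR3 (Flt4) of lymphatic endothelium.

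The libraries held 15163931 to 22610501 counts, and 3 counts corresponded to 0.135 to 0.201 CPM (counts relative to library size, scaled by edgeR's TMM factors). Replicates of a group correlated at r = 0.898 to 0.963 on the log2 CPM scale. The targeted gene, Prdm6, lay between 84.9 and 128 CPM in control DA and between 58.6 and 78.5 CPM in Prdm6-deficient DA, and between 95.6 and 135 CPM in control aorta and 61.9 and 81.2 CPM in Prdm6-deficient aorta. Its log2 fold change was -0.57 in the DA (adjusted p = 0.000553) and -0.69 in the aorta (adjusted p = 0.00017, edgeR's quasi-likelihood test with Benjamini-Hochberg adjustment, as for every adjusted p below). Where the term series is used, it means the 2 runs of animal numbers in the labels, and what else separated them is not stated. The first series gave 3 of the 5 Prdm6-deficient DA, 2 of the 5 Prdm6-deficient aorta, 2 of the 7 control DA and 1 of the 6 control aorta libraries.

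Of the 9 genes, 1 changed with loss of Prdm6 in the DA: Pdgfrb rose 1.47-fold. A gene was called changed when its adjusted p was below 0.01 and its log2 fold change exceeded 0.5 in either direction, and 5.43% of all tested genes met that rule in Prdm6-deficient against control DA. Pdgfa, the ligand of PDGFRα, passed the p limit in the same comparison but not the fold limit, at 1.38-fold. None of the 9 was called in the other 4 comparisons, in which the shares of all genes called were 2.45% for Prdm6-deficient against control aorta, 5.36% for control DA against control aorta, 0.267% for Prdm6-deficient DA against Prdm6-deficient aorta and 2.58% for the difference of the Prdm6 effect between the vessels. At an unadjusted p below 0.05, edgeR gave 4 of the 9 genes in the DA, 3 in the aorta, 6 between the control vessels, 3 between the Prdm6-deficient vessels and 1 for the difference of effects. The share of all genes under that limit was not computed, here or for the lists below. These counts therefore have no background to be read against. DESeq2 and limma-voom gave the same counts of calls as edgeR in all 5 comparisons. The median log2 fold change of the 9 was 0.30 in the DA and 0.32 in the aorta, beside medians of all genes of 0.01 and -0.001.

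With an adjusted p below 0.05 and no limit on the fold change, Pdgfrb and Pdgfa passed in the DA, where 12.4% of all genes did, and both also passed in the aorta, where 5.04% did. Pdgfrb alone passed between the control vessels, where 11.4% did. The groups did not overlap for 2 of the 9 genes in the DA (Pdgfa and Pdgfrb; 5.66% of all genes), for 0 of 9 in the aorta (6.95%), for 1 between the control vessels (Pdgfrb; 5.36%) and for 2 between the Prdm6-deficient vessels (Pdgfa and Pdgfra; 3.52%). The tissue comparisons and the comparisons of genotypes use the same libraries, so a low or high group enters more than 1 of them.

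**Figure D1:**
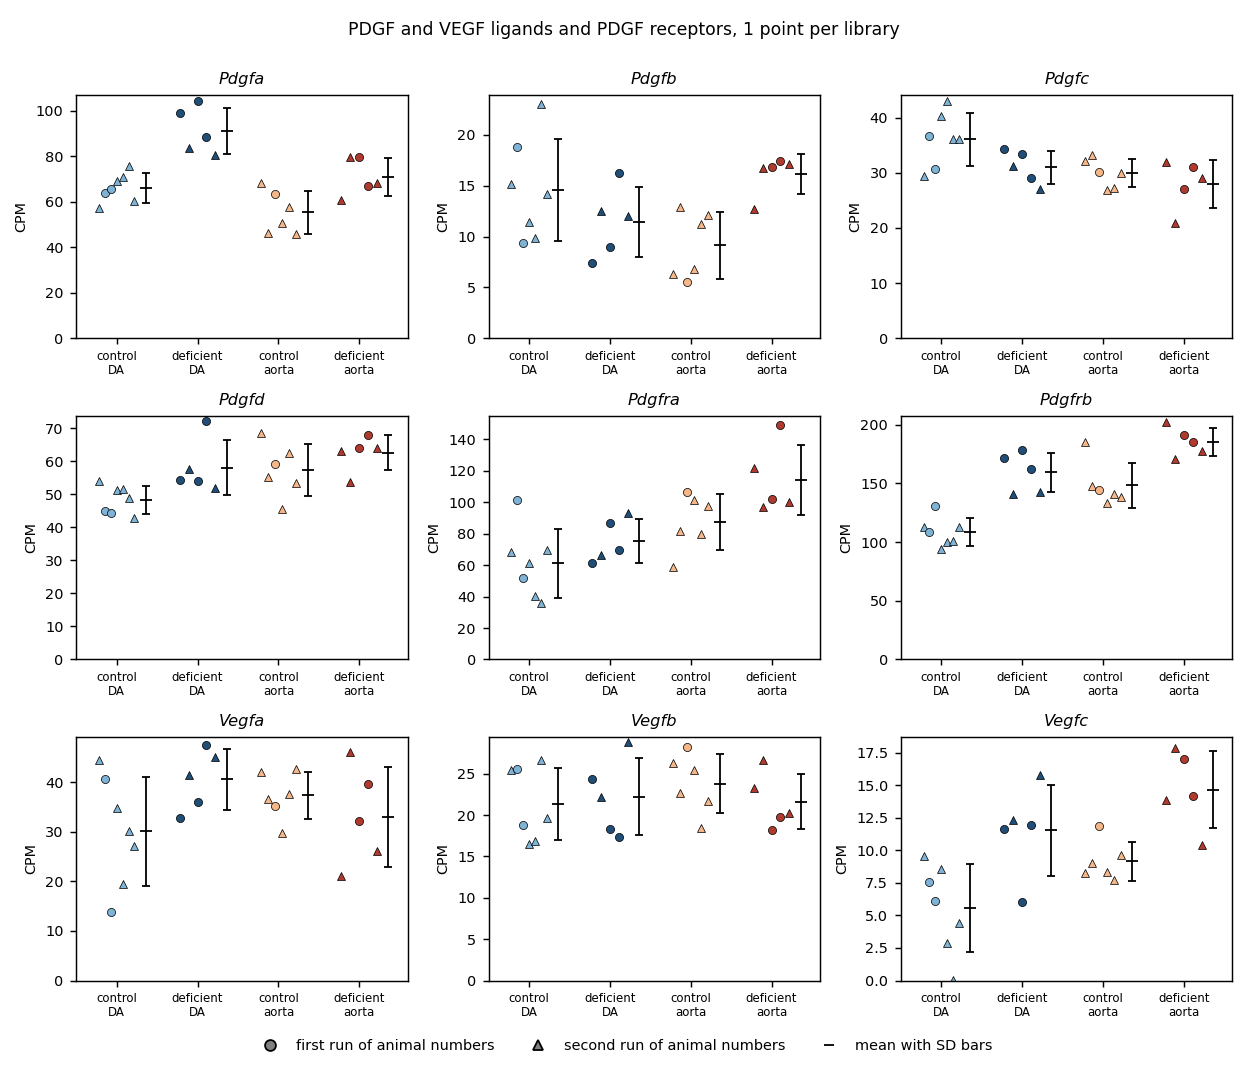
Levels of the 9 genes in CPM (vertical axis, from 0) in each of the 23 libraries, by group, with the mean and the SD beside the points. Circles are the first and triangles the second series of animal numbers. In Prdm6-deficient DA all 5 points of Pdgfrb (141 to 178 CPM) and of Pdgfa (80.8 to 104 CPM) lie above every control DA point, and 1 control DA point of Vegfc lies near 0.

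Of the receptor genes, Pdgfrb (chromosome 18, plus strand), which encodes the receptor of PDGF-B and PDGF-D on mural cells, measured 113, 109, 131, 93.7, 100.2, 101 and 112 CPM in control DA replicates 1 to 7. The 5 Prdm6-deficient DA libraries measured 172, 141, 178, 162 and 143 CPM. The lowest Prdm6-deficient library thus lay above the highest control, and the means were 159 ± 16.8 (SD, n = 5) against 109 ± 12.1 CPM (SD, n = 7). The log2 fold change was 0.55 (SE 0.087, 95% confidence interval 0.37 to 0.73, adjusted p = 5.22e-05). Each series alone gave less, 0.51 in the first and 0.45 in the second, where it was no longer called (adjusted p = 0.068 and 0.035), and it stayed called with the series as a covariate (0.51, adjusted p = 0.000143).

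In the aorta, Pdgfrb measured 185, 147, 144, 133, 141 and 139 CPM in the 6 controls and 202, 171, 191, 185 and 178 CPM in the 5 Prdm6-deficient libraries. Control replicate 1 alone reached the range of the Prdm6-deficient libraries. This gave a log2 fold change of 0.32 (SE 0.090, adjusted p = 0.0317), under the fold limit, and without that control it was 0.40, the highest value with any 1 library left out. The effects in the DA and the aorta differed by 0.23 on the log2 scale (95% confidence interval -0.03 to 0.49, adjusted p = 0.403).

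Control DA held less Pdgfrb than control aorta, with no overlap between the groups: the highest control DA library, at 131 CPM, lay under the lowest control aorta library, at 133 CPM. The log2 fold change was -0.45 (SE 0.083, adjusted p = 0.000357), short of the fold limit. Among the Prdm6-deficient vessels it was -0.22 (95% confidence interval -0.41 to -0.03, adjusted p = 0.398). Prdm6-deficient DA thus lay between control DA and Prdm6-deficient aorta, and its libraries overlapped the control aorta range.

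Pdgfra (chromosome 5: 75152292 to 75198215, plus strand), the mesenchymal receptor gene, varied more than Pdgfrb. In control DA its lowest, median and highest libraries measured 36.2, 61.1 and 101 CPM, and the 5 Prdm6-deficient DA libraries measured 61.1, 66.6, 86.9, 69.4 and 93.3 CPM. Control DA replicate 2, which carried Cre, was the highest of all 12 DA libraries. In log2 terms the difference was 0.30 (SE 0.19, adjusted p = 0.37), and in the first series alone its sign changed, to -0.083. In the aorta the controls ran from 58.7 to 106 CPM and the Prdm6-deficient libraries from 96.9 to 149 CPM (0.38, SE 0.20, adjusted p = 0.395).

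Between the vessels, Pdgfra was lower in the DA. The log2 fold change was -0.51 among controls (SE 0.18, adjusted p = 0.0676) and became -0.68 with adjusted p = 0.00493, a call, when control DA replicate 2 was left out. Among the Prdm6-deficient vessels the groups did not overlap, with a highest DA library of 93.3 CPM and a lowest aorta library of 96.9 CPM (-0.60, SE 0.21, adjusted p = 0.227). Per exon length, the ratio of Pdgfrb to Pdgfra had medians of 3.03 in control DA, 3.88 in Prdm6-deficient DA, 2.92 in control aorta and 3.23 in Prdm6-deficient aorta, with overlapping ranges.

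Among the ligands, Pdgfa (chromosome 5: 138976014 to 138997370, minus strand) measured 57.1, 63.7, 65.8, 69, 71, 75.9 and 60.4 CPM in control DA and 99, 83.6, 104, 88.4 and 80.8 CPM in Prdm6-deficient DA. Every Prdm6-deficient library lay above every control. This gave a log2 fold change of 0.46 (SE 0.10, 95% confidence interval 0.25 to 0.67, adjusted p = 0.0025). It passed the fold limit, at 0.50, when either Prdm6-deficient DA replicate 7 or control DA replicate 6 was left out, and was 0.58 in the first series (adjusted p = 0.0611) and 0.30 in the second (adjusted p = 0.304).

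In the aorta, Pdgfa measured 45.8 to 68.4 CPM in controls and 60.9 to 79.8 CPM in Prdm6-deficient libraries (0.36, SE 0.11, adjusted p = 0.0467). The effects in the vessels differed by 0.10 (95% confidence interval -0.20 to 0.41, adjusted p = 0.832). Pdgfa was 0.26 higher on the log2 scale in control DA than in control aorta (adjusted p = 0.105) and 0.36 higher in Prdm6-deficient DA than in Prdm6-deficient aorta (adjusted p = 0.155). An annotated antisense gene, 6330403L08Rik, overlaps 2315 bases of the Pdgfa span, introns included, on the other strand. Its median CPM was 33.6% of that of Pdgfa. The counting is not stated to use strand, so reads of any exon bases shared with that gene cannot be told apart. The log2 fold change of that gene was -0.30 in the DA (adjusted p = 0.129) and 0.35 in the aorta (adjusted p = 0.139), and it was called between the control vessels, with the DA higher (0.62, adjusted p = 0.000549).

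Pdgfb (chromosome 15: 79995874 to 80014977, minus strand), the endothelial ligand of PDGFRβ, had fold changes of opposite sign in the vessels, neither of which was called. In control DA it measured 15.1, 18.8, 9.4, 11.4, 9.9, 23.1 and 14.2 CPM and in Prdm6-deficient DA 7.36, 12.6, 8.98, 16.3 and 12 CPM. These groups overlapped over most of their range (log2 fold change -0.35, SE 0.25, adjusted p = 0.438). In control aorta it measured 6.31, 12.9, 5.49, 6.84, 11.2 and 12.1 CPM and in Prdm6-deficient aorta 12.7, 16.7, 16.8, 17.5 and 17.1 CPM.

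Of the Prdm6-deficient aorta libraries, replicate 1 alone reached down to the control range. The log2 fold change was 0.82 (SE 0.25, 95% confidence interval 0.30 to 1.34, adjusted p = 0.0577), and the difference of the effect between DA and aorta was -1.17 (SE 0.35, 95% confidence interval -1.90 to -0.44, adjusted p = 0.0512). Control DA exceeded control aorta by 0.67 (SE 0.24, adjusted p = 0.0655), while Prdm6-deficient DA lay 0.50 under Prdm6-deficient aorta, a log2 fold change of -0.50 (adjusted p = 0.563).

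Endothelial markers moved with Pdgfb in the aorta. Their summed level ran from 914 to 1504 CPM in control aorta and from 1364 to 1842 CPM in Prdm6-deficient aorta. There 4 of the 11 markers were called higher (Tie1, Tek, Emcn and Sox17), beside 2.45% of all genes called. In the DA the sums were 1069 to 1507 and 1348 to 1872 CPM, with 1 of 11 called higher (Cldn5), beside 5.43% of all genes called. Over the 23 libraries, which share the scaling by depth, log2 Pdgfb and the log2 marker sum correlated at Pearson r = 0.66 and Spearman rho = 0.62, and at r = 0.66 after the group means were removed and 0.52 without the 2 libraries with the most extreme sums. The part of endothelial content in the Pdgfb values was not tested, and in whole vessels fewer cells of a type and less RNA per cell cannot be told apart.

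**Figure D2:**
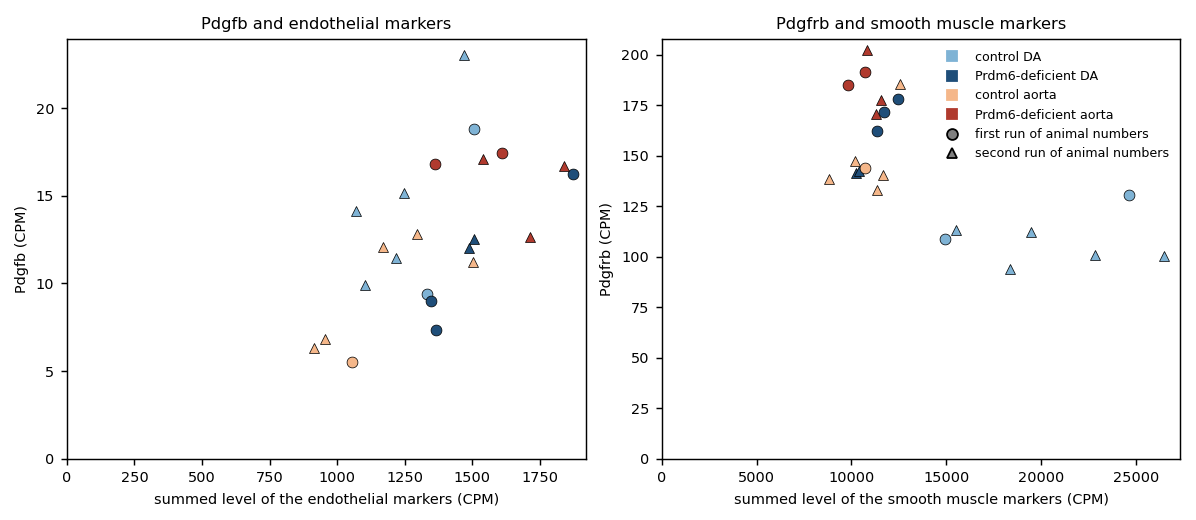
Left, Pdgfb against the summed level of 11 endothelial markers, and right, Pdgfrb against the summed level of 10 smooth muscle markers, all in CPM, with 1 point per library. The 3 lowest Pdgfb values are in control aorta libraries with sums of 914 to 1054 CPM. Control DA lies apart on the right, with the lowest Pdgfrb values and smooth muscle sums of 14950.1 CPM or more.

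Neither latent ligand was called. Pdgfc (chromosome 3: 81036416 to 81214040, plus strand) ranged from 29.4 to 43.1 CPM in the DA of controls, 27 to 34.2 CPM in that of Prdm6-deficient embryos, 26.9 to 33.2 CPM in control aorta and 20.8 to 31.9 CPM in Prdm6-deficient aorta. All 4 ranges overlapped. In log2 terms the difference was -0.22 in the DA (95% confidence interval -0.45 to 0.01, adjusted p = 0.247) and -0.10 in the aorta (95% confidence interval -0.33 to 0.14, adjusted p = 0.871).

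Pdgfd (chromosome 9: 6168584 to 6378850, plus strand), a ligand of PDGFRβ, measured 42.9 to 54 CPM in the DA of controls and 52, 54, 54.4, 57.5 and 72.3 CPM in Prdm6-deficient DA. The highest controls met the lowest Prdm6-deficient libraries (log2 fold change 0.26, SE 0.098, adjusted p = 0.0785). In the aorta it ran from 45.6 to 68.4 CPM in controls and from 53.6 to 67.9 CPM in Prdm6-deficient libraries (0.12, adjusted p = 0.729). Control DA lay under control aorta by a log2 fold change of -0.25 (adjusted p = 0.091).

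**Figure D3:**
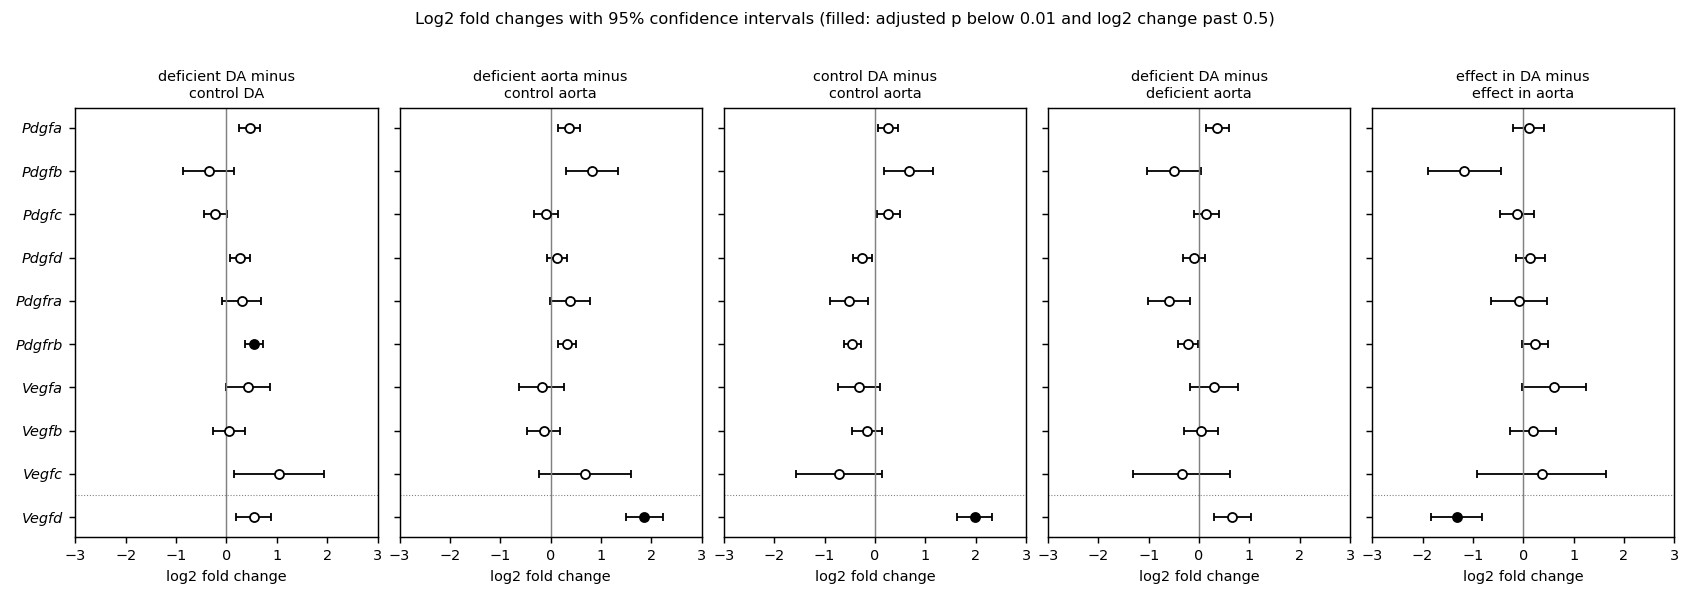
Log2 fold changes (horizontal axis) of the 9 genes and, below the dotted line, of Vegfd, in the 5 comparisons, with 95% confidence intervals; filled points were called. Among the 9 genes only Pdgfrb in the DA is filled, and Vegfd is filled in 3 panels.

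Vegfa (chromosome 17: 46016993 to 46032369, minus strand), the main angiogenic ligand, measured 44.4, 40.6, 13.7, 34.8, 19.5, 30.2 and 27.1 CPM in control DA and 32.8, 41.5, 36, 47.4 and 45 CPM in Prdm6-deficient DA. The range of the controls held 3 of the 5 Prdm6-deficient libraries. The log2 fold change was 0.43 (SE 0.21, 95% confidence interval -0.003 to 0.87, adjusted p = 0.215). In the aorta the Prdm6-deficient libraries were the more variable, at 21.1, 46, 32.1, 39.6 and 26.1 CPM against 29.8 to 42.6 CPM in controls (-0.18, adjusted p = 0.874). The difference of effects was 0.61 (95% confidence interval -0.02 to 1.24, adjusted p = 0.337).

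Vegfb (chromosome 19: 6982473 to 6987651, minus strand), the VEGFR1 ligand, differed little between the groups beside their spread. Its group means were 21.4 ± 4.38 (SD, n = 7) CPM in control DA, 22.2 ± 4.68 (n = 5) in Prdm6-deficient DA, 23.8 ± 3.55 (n = 6) in control aorta and 21.6 ± 3.33 (n = 5) in Prdm6-deficient aorta. Its log2 fold changes in the 5 comparisons lay between -0.15 and 0.19, with adjusted p from 0.641 to 0.978.

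Vegfc (chromosome 8: 54077606 to 54187096, plus strand), the lymphangiogenic ligand, had the lowest level per exon length of the 9 in control DA. It measured 9.52, 7.58, 6.12, 8.56, 2.87, 0.0557 and 4.38 CPM there, where replicate 6 held a single count, and 11.6, 12.3, 6.05, 11.9 and 15.8 CPM in Prdm6-deficient DA. All Prdm6-deficient libraries except replicate 5 lay above every control. Its log2 fold change was the largest among the 9 genes in the DA, at 1.04, but with an SE of 0.43 it was not called (95% confidence interval 0.15 to 1.93, adjusted p = 0.128), and it lay between 0.82 and 1.23 with any 1 library left out. Over all alternatives it ran from 0.52, in the first series alone, where Pdgfa had the larger value of 0.58, to 1.68 with limma-voom. In the aorta Vegfc ran from 7.73 to 11.9 CPM in controls and from 10.4 to 17.8 CPM in Prdm6-deficient libraries (0.68, SE 0.45, adjusted p = 0.598).

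Lymphatic endothelial markers varied within the DA. The summed level of the 5 markers ran from 23.2 to 142 CPM in DA controls and from 57 to 174 CPM in the Prdm6-deficient libraries, and Prox1, which defines this cell type, ran there from 0 to 14.4 CPM and in Prdm6-deficient DA from 1.19 to 19.2 CPM. Over the 23 libraries, Vegfc correlated with that sum at r = 0.57 and rho = 0.35, and Vegfa at r = 0.69 and rho = 0.67. After the group means were removed r was 0.68 and 0.62, and without the 2 libraries farthest from the median sum it was 0.41 and 0.74. Other lists were related to Vegfc too: the smooth muscle sum at r = -0.66 and rho = -0.77, and the fibroblast sum at r = 0.64 and rho = 0.32. The macrophage sum was less so, at r = 0.38 and rho = 0.08. With the group means removed these r became -0.45, 0.70 and 0.67. Without the 2 libraries farthest from the median of each sum they were -0.72, 0.13 and 0.13. Control DA replicate 6, with 1 Vegfc count, had the lowest lymphatic, fibroblast and macrophage sums of all libraries. Vegfa was related to other lists as well, at r = -0.60 with the smooth muscle and -0.50 with the pericyte sum. With the fibroblast and macrophage sums r was 0.57 and 0.49. With the group means removed these values were -0.67, -0.66, 0.40 and 0.48. Without the 2 libraries farthest from each median they were -0.23, -0.50, 0.52 and 0.56. The part of these cell types in either result was not tested.

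Promoter sequence is shown for Vegfa and Pdgfc, because these were a promoter with GC boxes and the one member promoter with a CArG box, the site bound by serum response factor in contractile smooth muscle genes. RefSeq promoter windows on GRCm38.p6 were at hand for 7 of the 9 genes (9 windows) and not for Pdgfb or Pdgfrb. The 250 bases before each start were searched on both strands. Capitals mark GGGCGG in Vegfa, at chr17:46032378-46032627 on the minus strand, and the CArG box in Pdgfc, at chr3:81036166-81036415 on the plus strand, both 5′ to 3′:
Vegfa: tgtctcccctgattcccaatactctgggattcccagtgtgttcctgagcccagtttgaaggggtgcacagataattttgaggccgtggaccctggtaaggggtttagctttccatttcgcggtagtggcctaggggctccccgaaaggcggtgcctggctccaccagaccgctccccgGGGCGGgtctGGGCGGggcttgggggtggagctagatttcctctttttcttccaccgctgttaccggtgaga
Pdgfc: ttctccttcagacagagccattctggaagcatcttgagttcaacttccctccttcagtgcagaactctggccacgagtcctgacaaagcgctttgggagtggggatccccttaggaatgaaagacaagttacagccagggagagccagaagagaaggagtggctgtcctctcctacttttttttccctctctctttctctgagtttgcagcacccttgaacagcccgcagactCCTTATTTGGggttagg
GGGCGG was found in both windows of Pdgfa and of Vegfa and in those of Vegfb and Vegfc, beside 32.7% of the 32851 windows in all, and a CArG box in that of Pdgfc alone, beside 1.47%. TATAAA was found in the window of Pdgfd (12.4% of all). The hypoxia element cores ACGTG (16.6% of all) and GCGTG (28.2%) were found together in 1 window of Vegfa. That window, chr17:46025164-46025413, lies inside the gene and overlaps its exons, and the Vegfa window printed above held neither core. GCGTG was also found in the window of Vegfb and in 1 window of Pdgfa, which overlaps exons of Pdgfa and 6330403L08Rik. These matches are letters in a window and no evidence of binding. Pdgfc, with the CArG box, was not called in any of the 5 comparisons, and its log2 fold change in the DA was -0.22. All 10 smooth muscle markers were lower in Prdm6-deficient DA, and 8 of them were called, beside 5.43% of all genes. Over the 23 libraries Pdgfc correlated with their sum at r = 0.59, and at 0.13 with the group means removed. The part of the CArG box in these values was not tested.

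Per kilobase of exon, Pdgfa and Pdgfrb were the highest of the 9 in the DA and Pdgfb and Vegfc the lowest. In control DA the means were 21.2 ± 2.05 CPM per kb for Pdgfa, 19.8 ± 2.20 for Pdgfrb, 15.3 ± 1.34 for Pdgfd, 13.3 ± 2.73 for Vegfb, 7.08 ± 0.951 for Pdgfc, 7.01 ± 2.57 for Vegfa, 6.11 ± 2.18 for Pdgfra, 3.50 ± 1.20 for Pdgfb and 2.28 ± 1.37 for Vegfc (SD, n = 7). In that order Pdgfa and Pdgfrb did not differ beyond their summed SDs, nor did Pdgfd and Vegfb, nor any neighbours from Pdgfc down, whereas Pdgfrb exceeded Pdgfd and Vegfb exceeded Pdgfc by more. The order depended on the length used: with the longest transcript, Pdgfa exceeded Pdgfrb beyond the spread in control DA, at 32.1 ± 3.11 against 20.02 ± 2.23 CPM per kb, and in Prdm6-deficient DA, at 44.3 ± 4.88 against 29.4 ± 3.10 CPM per kb. In control aorta Pdgfrb led at 27.1 ± 3.45, clear of Pdgfd at 18.2 ± 2.50 and Pdgfa at 17.8 ± 3.01 CPM per kb (n = 6). With the longest transcript as the length, Pdgfa in control aorta came to 26.9 ± 4.56 beside 27.3 ± 3.48 CPM per kb for Pdgfrb, within their spread. In Prdm6-deficient aorta Pdgfrb led by exon union at 33.9 ± 2.21, whereas by longest transcript Pdgfa at 34.5 ± 4.03 and Pdgfrb at 34.2 ± 2.23 lay within their spread, and by exon union Pdgfb was last at 3.88 ± 0.474 CPM per kb (n = 5).

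**Figure D4:**
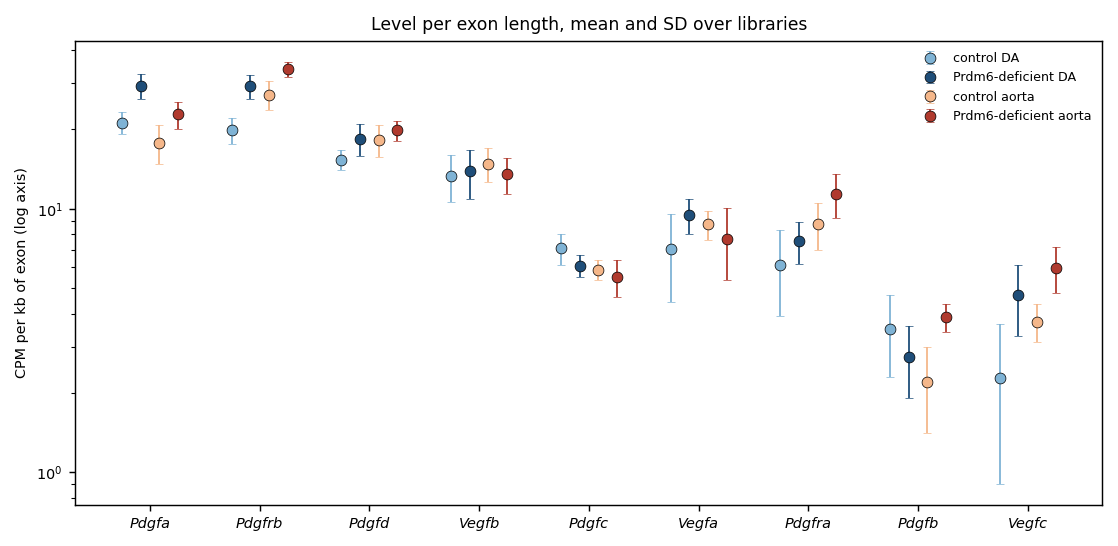
Mean level of each gene in CPM per kb of exon (log axis) with the SD over libraries, for the 4 groups, ordered by control DA. Pdgfrb and Pdgfa lie highest in each DA group, at 19.8 to 29.2 CPM per kb, and Pdgfb and Vegfc lowest, at 2.28 to 4.71 CPM per kb.

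Of the 7 other VEGF ligand, VEGF receptor and neuropilin genes, edgeR called Vegfd alone. Vegfd (chromosome X: 164373378 to 164402650, plus strand), like VEGF-C a ligand of VEGFR3, measured 4.75, 9.99, 7.7, 13.5, 9.84 and 8.63 CPM in control aorta and 33.2, 31.4, 38.8, 30.7 and 30.6 CPM in Prdm6-deficient aorta. The groups lay far apart, and the log2 fold change was 1.86 (SE 0.18, adjusted p = 7.35e-08, 3.63-fold). Control DA, at 29.2 to 45.1 CPM, lay above every control aorta library (1.98, SE 0.17, adjusted p = 5.27e-09). In Prdm6-deficient DA it measured 38.1 to 68.4 CPM (0.54 against control DA, SE 0.17, adjusted p = 0.0316), and the effect in the DA was smaller than that in the aorta by a log2 difference of -1.32 (SE 0.25, adjusted p = 0.000976). That difference was not called in either series alone (-1.23, adjusted p = 0.249, and -1.63, adjusted p = 0.0106), and the first series alone did not call the aortic value (2.18, adjusted p = 0.0155) or that between the control vessels (1.99, adjusted p = 0.011).

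The remaining 6 genes of that list were not called in any comparison with edgeR. Nrp2, a neuropilin that aids VEGF-C binding, came closest. It was higher in control DA, at 5.96 to 24 CPM, than in control aorta, at 4.34 to 10.4 CPM (0.85, SE 0.26, adjusted p = 0.0309). Prdm6-deficient aorta measured 10.4 to 23.3 CPM (0.99 against control aorta, SE 0.28, adjusted p = 0.0328). DESeq2 called 2 genes of the list in the aorta and 2 between the control vessels. In the DA, where edgeR and DESeq2 called 0 of the 7, limma-voom called 1 and 2 had an unadjusted p below 0.05. Pgf, the placental ligand of VEGFR1, had log2 fold changes of 0.83 in the DA (adjusted p = 0.138) and 0.72 in the aorta (adjusted p = 0.399). The receptor genes Flt1, Kdr and Flt4 had 0.07, -0.02 and 0.70 in the DA and -0.22, 0.18 and -0.31 in the aorta, and the co-receptor gene Nrp1 0.19 and 0.35. Within groups Kdr and Flt4 varied widely in control DA, from 4.9 to 25.6 and from 3 to 20.3 CPM.

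**Figure D5:**
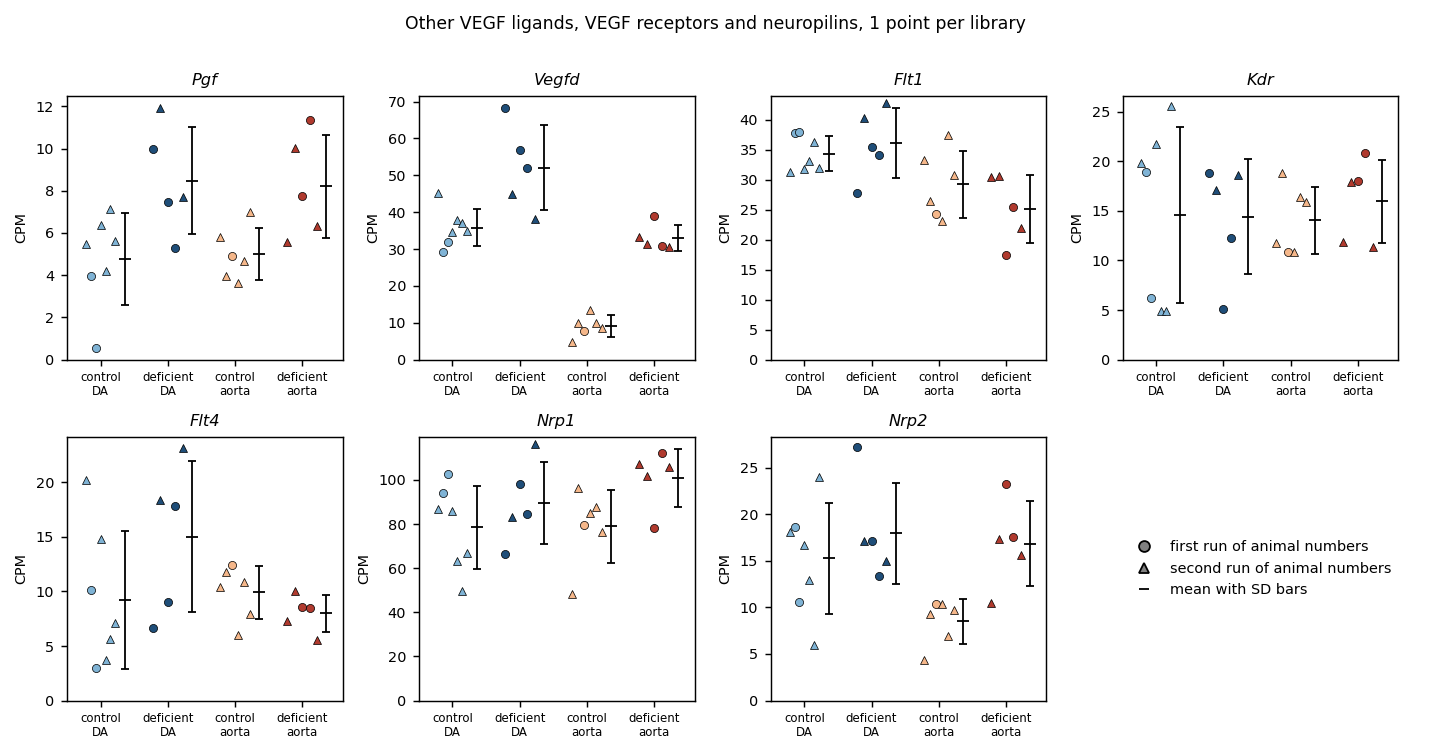
Levels in CPM of the 7 other VEGF ligand, VEGF receptor and neuropilin genes in each library, with the mean and the SD, and with the same marks for the series. Vegfd in control aorta, at 4.75 to 13.5 CPM, lies apart from the other 3 groups, which start at 29.2 CPM.

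Genes that process or bind these ligands gave 2 calls of 11 in the DA, where 5.43% of all genes were called. Plau, the urokinase that can activate PDGF-D, fell by 1.33 on the log2 scale (SE 0.16, adjusted p = 7.81e-07), and Pdgfrl, a PDGF-receptor-like gene without the kinase part, rose by 0.88 (SE 0.13, adjusted p = 1.85e-05). Between the control vessels the same genes were called in the other direction, Plau higher in the DA by 0.85 (adjusted p = 0.000121) and Pdgfrl lower, at -1.38 (adjusted p = 1.02e-08). No gene of this list was called in the aorta by edgeR, DESeq2 or limma-voom, where 4 of 11 had an unadjusted p below 0.05, and the Pdgfrl effect differed between the vessels by 1.21 (SE 0.19, adjusted p = 0.000116). The median log2 fold change of the list was -0.12 in the DA and 0.02 in the aorta.

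Of 29 receptor signalling intermediates, 1 was called in the DA, where 5.43% of all genes were. That gene was Src, a kinase recruited by PDGF receptors, with a log2 fold change of -0.58 (SE 0.13, adjusted p = 0.00309). Src was not called in 6 of 34 alternatives. None was called in the aorta by edgeR, DESeq2 or limma-voom, with 5 of 29 at an unadjusted p below 0.05. Pik3r1, the regulatory subunit of PI3-kinase, was lower in Prdm6-deficient DA than in Prdm6-deficient aorta (-0.58, SE 0.099, adjusted p = 0.0028) and was not called in 9 of 35 alternatives, among them a block for the animal in the 4 libraries of shared embryos (-0.41, adjusted p = 0.81). The list's medians were -0.01 in the DA and 0.04 in the aorta.

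Of 17 immediate early and feedback genes, 3 were called in the DA, where 5.43% of all genes were. Egr1, an immediate early transcription factor, fell by 1.19 (SE 0.23, adjusted p = 0.000553), a call that neither series gave alone (adjusted p = 0.021 and 0.119). The Sprouty feedback inhibitors of receptor tyrosine kinase signalling split, Spry1 higher by 0.67 (SE 0.14, adjusted p = 0.00127) and Spry2 lower, at -0.57 (SE 0.14, adjusted p = 0.00765), and the Spry2 call was absent from 14 of 34 alternatives. Spry1 was not called with single embryos only (0.47, adjusted p = 0.0598) or in the first series alone (adjusted p = 0.298). Between the control vessels Spry2 was higher in the DA by 0.78 (adjusted p = 0.00018) and Spry1 higher in Prdm6-deficient DA than in Prdm6-deficient aorta by 0.84 (adjusted p = 0.00405), although the latter was not called in 11 of 35 alternatives, with an adjusted p of 0.425 under the animal block. The effect on Spry2 differed between the vessels by -1.16 (SE 0.20, adjusted p = 0.000544). In the first series alone, with 1 control aorta library, that difference was -1.79 and the Spry2 value between the control vessels 1.16, neither called. The second series alone gave a difference of -0.80, also not called (adjusted p = 0.124). In the aorta edgeR and limma-voom called 0 of 17 and DESeq2 called 2, with 6 at an unadjusted p below 0.05.

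Of the 18 tested genes of the hypoxia pathway, which regulates Vegfa, 2 were called in the DA, where 5.43% of all genes were. Egln3, an oxygen-sensing prolyl hydroxylase, fell by 3.40 (SE 0.26, adjusted p = 1.69e-09) and Ndrg1, a hypoxia-induced gene, rose by 0.92 (SE 0.13, adjusted p = 6.95e-06). In the aorta Epas1, which encodes HIF-2α, rose by 0.78 (SE 0.11, adjusted p = 3.86e-05). Between the control vessels Egln3 was higher in the DA by 2.73 (adjusted p = 5.25e-09) and Ndrg1 lower, at -0.78 (adjusted p = 3.47e-05), and the effects differed between the vessels for Egln3 (-3.30, adjusted p = 9.6e-07) and Epas1 (-0.84, adjusted p = 0.00121). The first series alone called neither difference, nor the Epas1 value in the aorta, nor the Plau and Pdgfrl values in the DA. Between the control vessels, with its 1 control aorta library, it gave 2.85 for Egln3 and -1.10 for Ndrg1. Plau came to 0.80 and Pdgfrl to -1.46 there, and none of these was called. The second series alone did not call the Epas1 difference (-0.72, adjusted p = 0.054). Egln3 and Ndrg1 were called in the DA in all 34 alternatives. The median of the list was 0.05 in the DA and 0.003 in the aorta.

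Markers of the vessel wall were checked beside these results. The 10 smooth muscle markers summed to 14950.1 to 26478 CPM in DA controls and 10233 to 12459 CPM in Prdm6-deficient DA, without overlap, and to 8832 to 12545 and 9807 to 11543 CPM in control and Prdm6-deficient aorta. Pdgfrb thus rose in the DA where the smooth muscle sum was lower, and over the 23 libraries it correlated with that sum at r = -0.71 and rho = -0.56, but at r = 0.25 and rho = 0.21 after the group means were removed. With the melanocyte sum the values were r = -0.84 over all libraries and -0.13 with the group means removed. Pdgfra correlated with the smooth muscle sum at r = -0.72 within groups. With the sum of 12 fibroblast and adventitial markers Pdgfra correlated at r = 0.77 within groups, but at 0.49 over all libraries and 0.01 without the 2 most extreme. The relation was not particular to that list: within groups Pdgfra correlated with the macrophage sum at r = 0.72 and the lymphatic sum at 0.57. Over all libraries those values were 0.27 and 0.33, and without the 2 most extreme 0.05 and 0.21. The 9 pericyte markers summed to 6757 to 12529.6 CPM in DA controls and 4509 to 8493 CPM with Prdm6 deficiency, with Notch3 and Ndufa4l2 called higher and Kcnj8, Abcc9 and Mcam lower. In the aorta, where Pdgfrb and Pdgfb had fold changes above 0, the pericyte sum was 2330 to 3768 CPM in controls. It was 6091 to 6907 CPM in Prdm6-deficient libraries, without overlap. Most of it was Rgs5, with medians of 1395 and 5499 CPM. Over the 23 libraries Pdgfrb correlated with the pericyte sum at r = -0.29 and Pdgfb at 0.37. With the group means removed these values were 0.28 and -0.45. Of the 9 markers, 8 had log2 fold changes above 0 in the aorta, with 1 called higher and 1 lower. Abcc9 went the other way, at 169 to 208 CPM in control aorta and 82.2 to 138 CPM in Prdm6-deficient aorta. The 8 macrophage markers summed there to 158 to 300.4 CPM in controls and 88.8 to 137 CPM in Prdm6-deficient libraries, also without overlap, with 0 of 8 called by edgeR, 3 by DESeq2 and 1 by limma-voom, and 8 at an unadjusted p below 0.05. Melanocyte markers summed to 32.2 to 229 CPM in control DA and to 14.8 CPM or less in all other libraries, and the 7 epithelial markers to 20.7 to 58.4 CPM in DA controls and 12.8 to 39.7 CPM in Prdm6-deficient DA. Of the epithelial markers Krt18 made up most of that sum, at 12.2 to 37.1 CPM in the DA libraries, Cdh1 reached 2.56 CPM, and Epcam and Krt5 were at 0 there. Of all genes, 5.43% were called in the DA and 2.45% in the aorta. How often the sums of other genes do not overlap was not computed. The part of these cell types in the changes was not tested.

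For each of the 9 genes, the tested genes with the most similar log2 CPM over the 23 libraries were named. Pdgfrb was closest to Ndufv3 (Pearson r = 0.92), Frzb (0.90) and Dlx1 (0.90), Pdgfra to Akr1c14 (0.85), Lgi2 (0.84) and Pdcd4 (0.84), and Pdgfa to Hmgn3 (0.82), Pkig (0.80) and Mprip (0.80). Pdgfb was closest to Tmcc3 (0.78), Epas1 (0.74) and Klhl3 (0.72), Pdgfc to Tagln3 (0.76), Rap1gap (0.72) and Vps36 (0.70), and Pdgfd to Fhod1 (0.76), Tmc6 (0.75) and Slc29a1 (0.73). Vegfa was closest to Lbp (0.84), Flt4 (0.82) and Gja5 (0.81), Vegfb to Icosl (0.74), Efcab5 (0.72) and Fam160a1 (0.72), and Vegfc to Plcl2 (0.93), Rpl15-ps3 (0.91) and Gimap4 (0.90). By Spearman rho the 3 closest genes were the same for Pdgfd, and for Vegfc none was shared. The Pearson values of Vegfc include control DA replicate 6, where it held 1 count.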

How the data were processed

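Libraries were prepared from microdissected vessels with a low-input kit, sequenced in pairs and quality-filtered; reads were aligned by the authors with STAR to mm10 and deposited as RSEM expected counts per gene. Tool versions and the use of strand are not given in the sources used here. The expected counts were rounded to whole numbers, genes were filtered with filterByExpr, and 16463 of 54752 genes in 23 of the 24 labelled libraries were fitted by group in edgeR 4.0.16 (R 4.3.3) with TMM scaling, the quasi-likelihood test and Benjamini-Hochberg adjustment over all tested genes. Genes were called at an adjusted p below 0.01 and an absolute log2 fold change above 0.5. Alternatives included DESeq2 1.42.0, limma-voom 3.58.1, other filters and scalings, the animal-number series, replicate blocks and leaving out each library. Embryos differ between the libraries of a group, so p-values measure the spread between embryos or pools. Levels per kb used the union of exons of an mm10 annotation, in which 29 gene identifiers had no match. Libraries of the same embryo (6 control and 2 Prdm6-deficient pairs, from the animal numbers in the labels) deviated from their group means with r = -0.02 to 0.08. A fit with the animal as a block was run only between the vessels within a genotype. None of the 9 genes was called there with or without the block, so it had no call to remove. The Pdgfrb call in the DA did not enter such a fit. The fitting step was tested on simulated data. Genes were named as the 9 members, the other VEGF genes, called genes of the pathway lists, and the 3 most similar genes per member. The members and lists were chosen with earlier results of these data known.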

Additional observations from a re-analysis of the deposited data

Results flagged for a closer look

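In 64 sets of 1 gene in 1 group, 4 held a library whose gap to its nearest neighbour was large for the range of the group, and chance alone flags about 1 in 20 groups. Pdgfb was low in Prdm6-deficient aorta replicate 1, at 12.7 CPM with the nearest library at 16.7 CPM. Pdgfd was high in Prdm6-deficient DA replicate 6, at 72.3 CPM with the nearest at 57.5 CPM. Pdgfrb was high in control aorta replicate 1, at 185 CPM with the nearest at 147 CPM. Nrp2 was high in Prdm6-deficient DA replicate 1, at 27.2 CPM with the nearest at 17.2 CPM. The Prdm6 effect on Vegfd differed between the vessels by the interaction test of edgeR, with a log2 difference of -1.32 (DA minus aorta, adjusted p = 0.000976).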

How the results depend on the processing

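For the 9 genes, 1514 values under an alternative kept their direction and their side of the threshold, 17 changed sign, 6 became called and 2 lost the call; for the other named genes 788 were kept and 65 lost the call. With an adjusted p below 0.05 and no fold limit, the number of the 9 genes called was 2 in the DA, 2 in the aorta and 1 between the control vessels. Replicate numbers mostly join different embryos, and same-numbered libraries correlated at r = -0.05 to 0.13; with a replicate block the count was 1 in the aorta (Pdgfb 1.02, adjusted p = 0.00281) and 1 for the difference of effects (Pdgfb -1.51, adjusted p = 0.00273). With a single series the count in the DA was 0 in either, and 1 between the control vessels in the second (Pdgfrb -0.52, adjusted p = 0.00104); fewer libraries enter these fits. Leaving out 1 library gave counts of 1 to 2 in the DA and 0 to 1 between the control vessels. The sign changes were all of values that were not called, the largest being Pdgfra in the DA, at 0.30 in the main fit. Vegfb between the Prdm6-deficient vessels was -0.042 with the replicate block, -0.0094 with single embryos only and -0.076 to 0.12 with 1 library left out. The difference of effects for Pdgfra was 0.014 with the block, 0.057 with single embryos, 0.021 without Cre-carrying controls, 0.19 in the second series and -0.18 to 0.085 with 1 library left out. In the first series, Vegfb in the DA was -0.15 (-0.057 to 0.13 with 1 library left out), Pdgfra in the DA -0.083 and Vegfa in the aorta 0.029. In the second series, Vegfb in the aorta was 0.031 and the difference of effects for Pdgfa -0.070. The cause of these changes was not tested. Over all alternatives the number of all genes called ran from 201 to 2036 in the DA, beside 894 as reported, from 7 to 829 in the aorta (404), from 20 to 1869 between the control vessels (882), from 2 to 149 between the Prdm6-deficient vessels (44) and from 0 to 856 for the difference (425). Depth limits low genes most: Vegfc rested on 1 count in control DA replicate 6.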
